A study of Mus musculus with 6 samples.

Results

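Melan-a cells with activated BRAF and added TWIST1 were compared with the same line with activated BRAF alone. Melan-a is a line of mouse melanocytes, the pigment cells of the skin, derived from melanoblasts of C57BL/6 embryos. The comparison used 2 of 6 arrays, the one labelled TWIST1 and the one labelled BRAF activated without a factor (BRAF-on), and 11334 of 18193 genes entered it. A gene entered where at least 1 of the 2 arrays reached a floor of 63.7 signal units, the median of all values without control probe sets. Where a gene had several probe sets, the one brightest on average over the 6 arrays (mean log2 signal) stood for it. Values under the floor were raised to it, so a fold against such an array is a lower bound.

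All 6 cultures carried delta-BRAF-ER, an activated BRAF fused so that tamoxifen switches it on. In the BRAF-off group it was not switched on, in BRAF-on it was, and in the other groups it was switched on in cells that also received ZEB2, SNAIL2, TWIST1 or ZEB1. Each group had 1 array, so no spread between cultures could be estimated and no test was run. Each fold thus compares 1 culture with 1 other, and precision is limited by that number. There was no array of TWIST1 without BRAF activation and none of tamoxifen without the construct, so against BRAF-on TWIST1 alone and differences between cultures cannot be told apart from TWIST1 acting with BRAF, and against BRAF-off the drug cannot either. How much tamoxifen was given, for how long, and how the cells with TWIST1 were selected was not stated in the labels read here.

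TWIST1 is a basic helix-loop-helix transcription factor of mesoderm and neural crest. It pairs with E proteins, binds E-boxes and is known for mesenchymal cell fates in development and for epithelial-mesenchymal transition in tumours. Melanocytes also descend from the neural crest, and their pigment genes are driven by MITF, another helix-loop-helix protein that binds the M-box, an E-box with the core CATGTG. SOX10 and PAX3 act upstream of MITF, and BRAF feeds the ERK kinase pathway.

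Short stretches of promoter are shown first because they hold the M-box core in genes whose signal was among those lowest with TWIST1. The sequences are RefSeq promoters of build GRCm38.p6, read 5' to 3' on the strand of the gene, with the core or its reverse complement in capitals.
Tyr, chr7:87493513-87493572, minus strand: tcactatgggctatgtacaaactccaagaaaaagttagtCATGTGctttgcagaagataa
Tyrp1, chr4:80834140-80834199, plus strand: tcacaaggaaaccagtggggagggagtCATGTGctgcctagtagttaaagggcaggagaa
Dct, chr14:118052364-118052423, minus strand: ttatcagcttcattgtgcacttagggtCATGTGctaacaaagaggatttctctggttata
Mc1r, chr8:123406993-123407052, plus strand: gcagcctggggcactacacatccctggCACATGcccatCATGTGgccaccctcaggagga
Trpm1, chr7:64153667-64153726, plus strand: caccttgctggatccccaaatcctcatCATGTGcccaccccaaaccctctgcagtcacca
The core began 21 bases before the start site of Tyr, 46 bases before that of Tyrp1, 150 before that of Dct, which held a second match at 232, and 141 before that of Trpm1. Mc1r held it at 62 and at 51 bases. A match is a run of letters and was not measured as a binding site.

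The array labels were set against the gene they name before any other result. The mouse Twist1 probe set had a signal of 275 in BRAF-off, 338 in BRAF-on, 209 with ZEB2, 138 with SNAIL2, 278 on the TWIST1 array and 404 with ZEB1. It was therefore not higher on the array that bears its name, where it lay 1.22-fold under BRAF-on. These arrays read a transcript close to its 3' end, and the labels do not say whether the introduced sequence includes that stretch. The label was neither met nor contradicted by this probe set, and "with TWIST1" below stands for the array so labelled. Twist2, the closest relative of Twist1, was at 141 in BRAF-on and 337 with TWIST1, a 2.39-fold difference, and was highest there of the 6 arrays. The endogenous Snai2, Zeb1 and Zeb2 stayed within 2-fold of BRAF-on, with log2 ratios of 0.24, -0.28 and 0.16, and Braf was 1.38-fold higher.

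Between 10611 and 11269 of the genes reached the floor on each array, 11019 of them in BRAF-on and 10779 with TWIST1. The 3' to 5' signal ratio of the Gapdh control was 0.793 with TWIST1 and 0.811 in BRAF-on, and that of the actin control 1.36 and 1.47. Hybridisation controls had a median log2 ratio of 0.0025 (18 probe sets) and poly-A controls added before amplification one of -0.18 (24 probe sets).

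Relative to BRAF-on, 230 genes (2.03% of those compared) had a signal at least 2-fold higher with TWIST1, and 229 (2.02%) had one at least 2-fold lower. The median log2 ratio over all genes compared was 0.0026. For 39 of the higher and 76 of the lower genes 1 array lay under the floor, so the fold is a bound. Against BRAF-off, 346 of 11132 genes were higher (3.11%) and 290 lower (2.61%). Of the 230, 164 (71.3%) were at least 2-fold higher than BRAF-off too and 229 lay on the same side of it. Of the 229, 172 (75.1%) were at least 2-fold lower than BRAF-off and 220 lay on the same side. These comparisons share the TWIST1 array, so the second is no independent support for the first. Among higher genes with several informative probe sets, 62 of 77 had all of them on the same side, and among lower genes 81 of 90. All of them were past 2-fold in 30 of the 77 and 37 of the 90.

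**Figure D1:**
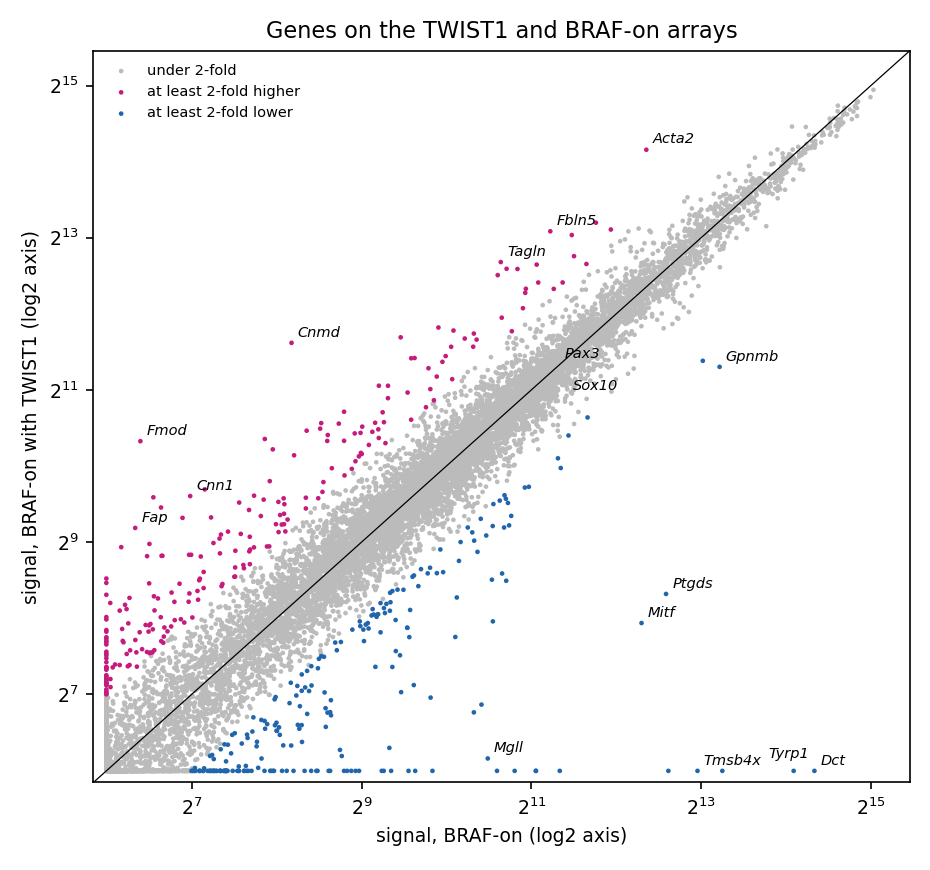
Signal of each compared gene in BRAF-on (x axis) and with TWIST1 (y axis), both on log2 axes, with values under the floor of 63.7 drawn at the floor. Genes at least 2-fold higher (230) are magenta, those at least 2-fold lower (229) blue and the others grey, and the line marks equal signals. Dct, Tyrp1 and Tmsb4x lie at the lower edge far from the line, and Fmod and Cnmd stand above it.

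Melanin genes had the lowest median of the 48 gene lists. Of 13 genes listed for melanin enzymes and melanosome proteins, 11 had a probe set with a single gene name, and 11 of 11 were at least 2-fold lower with TWIST1. Their median log2 ratio was -5.06 against BRAF-on and -5.94 against BRAF-off. As most of these folds are bounds, the median against BRAF-on depends on the floor, at -2.16 with the floor at the 75th percentile of all values and -6.49 with none. For 10 of them the TWIST1 array was under the floor while the other 5 arrays were above it.

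Dct, which encodes dopachrome tautomerase, had a signal of 23974 in BRAF-off, 20660 in BRAF-on, 29621 with ZEB2, 33845 with SNAIL2 and 9319 with ZEB1, and it was under the floor with TWIST1. The difference from BRAF-on was at least 324-fold. Tyrp1, the gene of a second enzyme of the same family, was at 22671, 17439, 25678, 29340 and 6000 on those arrays in the same order, and under the floor with TWIST1, at least 274-fold lower. Its 3 probe sets were all under the floor there. Tyr, which encodes tyrosinase, the rate-limiting enzyme of melanin synthesis, was at 5366 in BRAF-off, 2583 in BRAF-on, 7467 with ZEB2, 9714 with SNAIL2 and 922 with ZEB1. With TWIST1 it was under the floor, at least 40.5-fold lower than BRAF-on, and so were its other 2 probe sets.

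Proteins that build the pigment granule followed the enzymes. Pmel, whose protein forms the fibrils on which melanin is laid down, was at 13090 in BRAF-off, 9740 in BRAF-on, 19313 with ZEB2, 24591 with SNAIL2, 4076 with ZEB1 and under the floor with TWIST1, at least 153-fold lower than BRAF-on. Mlana, a melanosome membrane protein gene, was at 11194, 6270, 12368, 13282 and 1533 on those 5 arrays and at least 98.4-fold lower with TWIST1. The transporter gene Slc45a2 was at least 33.4-fold lower, Oca2, a melanosome anion channel gene, at least 10.2-fold, Tspan10 at least 9.63-fold and Gpr143, the gene of ocular albinism, at least 7.65-fold. Gpnmb, a melanosome glycoprotein gene also used by other cells, kept a signal of 2527 with TWIST1 against 9524 in BRAF-on, a 3.77-fold difference. It was the sole gene of the list above the floor on the TWIST1 array. In 10 of the 11 genes the arrays ran from lowest to highest in the order TWIST1, ZEB1, BRAF-on, BRAF-off, ZEB2, SNAIL2. That full order was not counted over all genes compared. In 11 of 11 TWIST1 was lowest. Over all genes compared, TWIST1 was lowest of the 6 in 18.6%.

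Receptors that melanocytes use for growth and differentiation did not differ in one direction. Of 16 compared, 2 were at least 2-fold lower and 2 higher, with a median log2 ratio of 0.08. Mc1r, the receptor for melanocyte-stimulating hormone, was at 2400 in BRAF-off, 1547 in BRAF-on, 3549 with ZEB2, 5806 with SNAIL2 and 456 with ZEB1, and under the floor with TWIST1, at least 24.3-fold lower than BRAF-on. Kit, the receptor for stem cell factor, was at 1316, 751, 1675, 2761 and 154 on those arrays and at least 11.8-fold lower with TWIST1. Both were lowest on the TWIST1 array. Met, the hepatocyte growth factor receptor gene, was 1.95-fold lower and Erbb3, a neuregulin receptor gene, had a log2 ratio of -0.58, both under the size that counts. The higher members were Pdgfrb (2.55-fold), a receptor of mesenchymal cells, and Fgfr3 (2.25-fold). Neither was at least 2-fold above BRAF-off, with log2 ratios of 0.98 and 0.35.

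Mitf was much lower with TWIST1, while Sox10, Pax3 and Foxd3 stayed within 2-fold of BRAF-on. Its signal was 7191 in BRAF-off, 5036 in BRAF-on, 11060 with ZEB2, 14255 with SNAIL2, 1410 with ZEB1 and 245 with TWIST1. The TWIST1 value lay above the floor and was 20.6-fold under BRAF-on and 29.4-fold under BRAF-off. Sox10 was at 3777, 2730, 5182, 7757, 2375 and 1941 on the arrays in that order, a 1.41-fold difference from BRAF-on, and its other probe sets had log2 ratios of -0.74 and -0.63. Pax3 was at 2546 in BRAF-on and 2589 with TWIST1, and its range over the 6 arrays was 2514 to 3746. Foxd3, a neural crest factor, was at 262 and 281.

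Of 16 lineage transcription factors compared, 4 were at least 2-fold lower and none higher, with a median log2 ratio of -0.51. Besides Mitf these were Lef1, a nuclear partner of WNT signalling (at least 3.90-fold lower), Tfec, an MITF relative (at least 2.55-fold), and Sox5 (at least 2.05-fold). Sox5 lay at 63.3 with TWIST1, just under the floor. Tfap2a, a factor of neural crest and melanocytes, was 1.43-fold lower. The other MITF relatives Tfe3 and Tfeb had log2 ratios of -0.23 and -0.28.

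**Figure D2:**
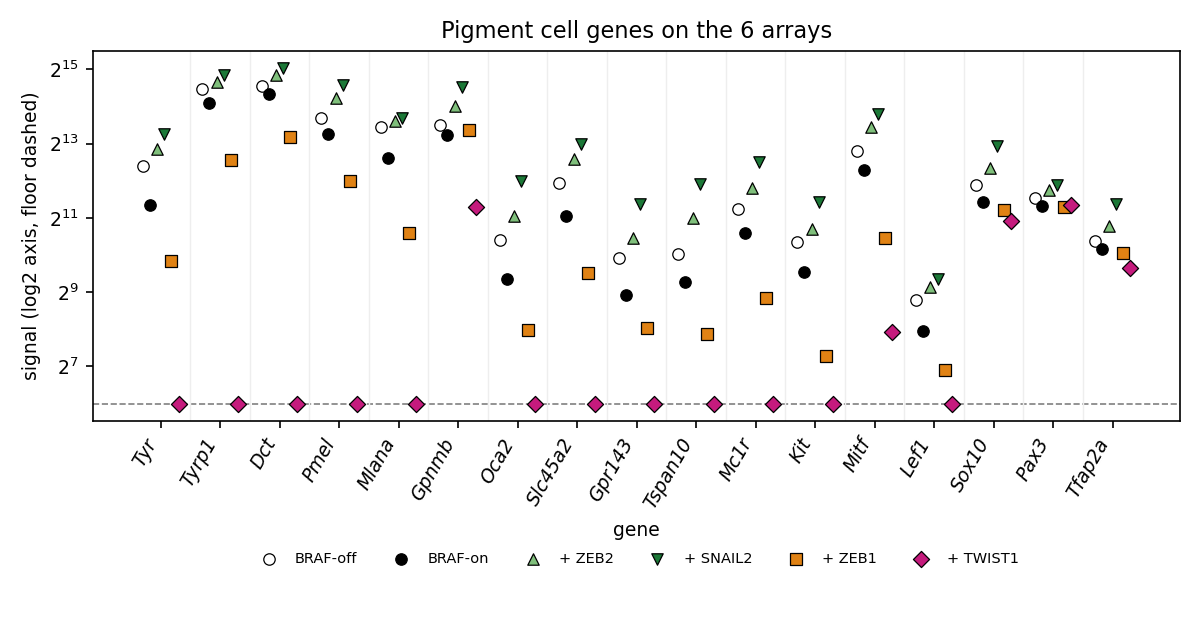
Signal of 17 pigment cell genes on the 6 arrays (log2 axis, 1 symbol per array, dashed line at the floor, values under it drawn on it). With TWIST1 the melanin genes other than Gpnmb lie on the floor and Mitf is at 245, while Sox10 at 1941 is the lowest of the 6 but within 2-fold of BRAF-on, as are Pax3 and Tfap2a.

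Genes that move the melanosome were partly lower. Of 19 genes for melanosome transport and biogenesis, 6 were at least 2-fold lower with TWIST1 and none higher, with a median log2 ratio of -0.45. Rab38 and Rab32, small GTPases that carry enzymes to the melanosome, were 6.02-fold and 2.37-fold lower. The 3 parts of the complex that ties melanosomes to actin differed in size. Mlph, the linker, was at 784 in BRAF-on and 139 with TWIST1 (5.64-fold lower), Rab27a at 252 and 122 (2.06-fold) and the motor gene Myo5a at 1550 and 887 (1.75-fold). Rab17 was 3.80-fold lower and Sytl2 2.08-fold. Genes of the general sorting machinery that other cells also use, such as Hps1, Ap3b1 and Vps33a, had log2 ratios of -0.08, -0.11 and -0.01.

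Among 12 channels and transporters of pigment cells, 5 were at least 2-fold lower and 1 higher, with a median log2 ratio of -0.57. This list overlaps the melanin list, and its lowest member was Slc45a2, described above. Trpm1, a cation channel gene, was at 2483 in BRAF-off, 1787 in BRAF-on and 357 with ZEB1, and under the floor with TWIST1, at least 28.0-fold lower than BRAF-on. The potassium channel gene Kcnj13 was at least 2.47-fold lower and Slc24a4 at least 2.15-fold (at least 1.93-fold against BRAF-off). Slc7a11, the cystine transporter that pheomelanin synthesis and glutathione both draw on, was the higher one, at 94.4 in BRAF-on and 275 with TWIST1.

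Genes known as MITF targets outside the pigment machinery were lower in part. Of 17 compared, 5 were at least 2-fold lower and 1 higher, with a median log2 ratio of -0.29. Mreg (melanoregulin) was at least 12.4-fold lower, Cited1, a transcriptional coregulator, 11.8-fold, and Rragd, a GTPase of lysosomal nutrient sensing, at least 7.87-fold. Gpr137b was 2.86-fold lower and Slc6a17 2.07-fold. Apoe, an apolipoprotein gene, was the exception, at 368 in BRAF-on, 1514 with TWIST1 and 3498 with ZEB1. Over the 6 pigment cell lists together, 30 of 88 genes were at least 2-fold lower (34.1%) and 4 higher (4.55%), with a median log2 ratio of -0.47. Of all genes compared, 2.02% were lower and 2.03% higher. Genes in more than 1 list, such as Mc1r and Slc45a2, were counted once in this sum.

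The M-box core was searched on both strands in the 250 bases before the start site. It was present in 6 of the 7 melanin list genes that the promoter table held (85.7%), namely Tyr, Tyrp1, Dct, Mc1r, Oca2 and Tspan10, and Gpnmb had none in that window. In other lists it was present in 1 of 16 melanosome transport genes (6.25%) and 3 of 13 other MITF targets (23.1%). Slc7a11, which was higher with TWIST1, held it 74 bases before its start. Of the genes compared that the table held, 8.89% of 9214 had it, as did 13.8% of all genes with a promoter there. Among all genes at least 2-fold lower with TWIST1 the share was 13.3% of 180, and among those higher 10.6% of 170. The wider E-box CANNTG, which contains the M-box core, was present in 66.1% of the lower, 72.9% of the higher and 61.3% of the compared genes.

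Several of the largest lower values belonged to genes outside the pigment lists. Mgll, the gene of monoacylglycerol lipase, was at 2962 in BRAF-off, 1435 in BRAF-on, 5484 with ZEB2, 10176 with SNAIL2, 631 with ZEB1 and 71.3 with TWIST1, a 20.1-fold difference from BRAF-on. Ptgds, which encodes a prostaglandin D synthase, was at 6151 in BRAF-on and 319 with TWIST1, 19.3-fold lower. Both ran in the same order over the 6 arrays as 10 of the 11 melanin genes. So did Adam12, Bfsp2, Glrb, Prodh and Bace2, named below, but not Art3 and Gsta2. Art3 was 11.7-fold lower by the probe set used, but its log2 ratio was -0.0014 with the median of its probe sets. The glutathione transferase gene Gsta2 was 8.18-fold lower, the metalloprotease gene Adam12 7.25-fold and the lens filament gene Bfsp2 5.97-fold. The glycine receptor gene Glrb was 5.57-fold lower and Prodh, of proline breakdown, 5.42-fold. Bace2, a protease known to cut PMEL, was at least 14.3-fold lower, and each of its 5 probe sets was under the floor with TWIST1 and above it in BRAF-on.

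Tmsb4x, which encodes thymosin beta 4, an abundant peptide that holds actin monomers, was at 11080 in BRAF-off, 7952 in BRAF-on, 11792 with ZEB2, 5443 with SNAIL2, 3014 with ZEB1 and under the floor with TWIST1, at least 125-fold lower than BRAF-on. It has 1 probe set with this name, so no second one could be compared. Tmsb10, its relative, was at 25159 and 23868, a 1.05-fold difference. Of 11 genes for actin monomer binding, Tmsb4x was the one past 2-fold, and their median log2 ratio was -0.08.

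Small leucine-rich proteoglycans, which bind collagen fibrils and set their spacing, were higher with TWIST1. Of 7 compared, 5 were at least 2-fold higher and none lower, with a median log2 ratio of 1.71 against BRAF-on and 1.24 against BRAF-off. Fmod (fibromodulin) was at 171 in BRAF-off, 84.1 in BRAF-on, 80.7 with ZEB2, 103 with SNAIL2, 67.0 with ZEB1 and 1284 with TWIST1. That was 15.3-fold above BRAF-on and 7.52-fold above BRAF-off, and its 6 probe sets were all higher. Dcn (decorin) was at 352, 444, 253, 109, 494 and 1679 on the arrays in that order, 3.78-fold above BRAF-on, and Ogn was 3.74-fold higher. Bgn (biglycan) was 3.27-fold higher but highest with ZEB1, at 630 against 563 with TWIST1. Against BRAF-off, Bgn was 1.66-fold higher. Relative to BRAF-on, Omd was at least 2.37-fold higher, Prelp 1.40-fold higher and Podn 1.25-fold lower.

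Collagens differed from one another. Of 26 compared, 6 had a signal at least 2-fold higher and 2 a lower one, with a median log2 ratio of 0.65. TWIST1 was highest of the 6 arrays in 16 (61.5%, against 17.4% of all genes compared) and lowest in 3 (11.5%, against 18.6%). Col3a1, a fibrillar collagen of soft tissue, was at 3525 in BRAF-off, 2850 in BRAF-on, 3259 with ZEB2, 4021 with SNAIL2, 4044 with ZEB1 and 8396 with TWIST1, 2.95-fold above BRAF-on. Col6a1 was 3.33-fold higher, Col6a2 2.47-fold, the cartilage collagen gene Col2a1 2.65-fold and Col27a1 2.30-fold. Col12a1 was 2.84-fold higher by the probe set used, while another had a log2 ratio of -0.09. Col1a1 was 1.75-fold higher, and Col1a2, which encodes its partner chain, was at 161 and 146. Col14a1 was 3.36-fold lower and Col7a1, of the anchoring fibrils under epidermis, 2.21-fold lower. Col12a1, Col27a1 and Col7a1 were within 2-fold of BRAF-off, with log2 ratios of 0.60, 0.80 and -0.41.

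Matricellular and elastic matrix proteins included 4 of 23 with a signal at least 2-fold higher and none lower, with a median log2 ratio of 0.39. Postn (periostin) was at 191 in BRAF-off, 142 in BRAF-on, 184 with ZEB2, 88.7 with SNAIL2, 208 with ZEB1 and 828 with TWIST1, 5.81-fold above BRAF-on. Fbln5, which helps assemble elastic fibres, was 3.63-fold higher, Lox, which cross-links collagen and elastin, 2.99-fold and Efemp1 2.74-fold. Lox was 1.91-fold above BRAF-off. Fibronectin (Fn1) had equal signals within 1.03-fold.

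Surface markers of fibroblasts and mesenchymal cells included 5 of 12 with a signal at least 2-fold higher and 1 lower, with a median log2 ratio of 0.72, which was -0.059 with the floor at the 75th percentile. Fap, a surface protease gene of activated fibroblasts, was under the floor in BRAF-off, at 80.6 in BRAF-on, 86.1 with ZEB2, 77.7 with SNAIL2, 288 with ZEB1 and 582 with TWIST1, 7.22-fold above BRAF-on. Nt5e (CD73) was at least 3.61-fold higher, Pdpn (podoplanin) at least 2.30-fold and Cd248 2.30-fold, though 1.95-fold against BRAF-off. Outside the list, the collagen receptor gene Ddr2 was at 704 in BRAF-on and 3307 with TWIST1, 4.69-fold higher. Eng (endoglin) was 3.57-fold lower. Vim (vimentin) was at 29501 and 28321, near the top of the scale on both arrays.

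Contractile genes of smooth muscle split into 4 with a large difference and many with a small one. Of 26 compared, 4 were at least 2-fold higher and none lower, with a median log2 ratio of 0.14. In 23 the ratio was above 0, against 5710 of the 11334 genes compared, and in 17 TWIST1 was highest of the 6 arrays (65.4%, against 17.4% of all genes compared). Acta2, smooth muscle actin, was at 5701 in BRAF-off, 5236 in BRAF-on, 3909 with ZEB2, 5471 with SNAIL2, 2017 with ZEB1 and 18263 with TWIST1, 3.49-fold above BRAF-on, while a dimmer probe set, the one left when shared ones are dropped, had a log2 ratio of at least 0.51. Tagln (transgelin) was at 2441, 1596, 897, 958, 278 and 6564 in that order, 4.11-fold above BRAF-on. Cnn1 (calponin) was at 126 in BRAF-on and 779 with TWIST1, 6.16-fold higher, and under the floor with ZEB2 and ZEB1. Actg2 was 3.26-fold higher. Cald1 and Tpm1 were 1.30-fold and 1.29-fold higher. A CArG box, the binding sequence of serum response factor, was found before the start of 6 of the 23 genes in the promoter table (26.1%, against 1.43% of compared genes), but none of those 6 was past 2-fold. Of the 4 genes that were, Acta2 and Cnn1 had no match to this strict pattern in that window, and Tagln and Actg2 were not in the table. CArG sequences that differ from the pattern or lie outside the window were not searched.

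**Figure D3:**
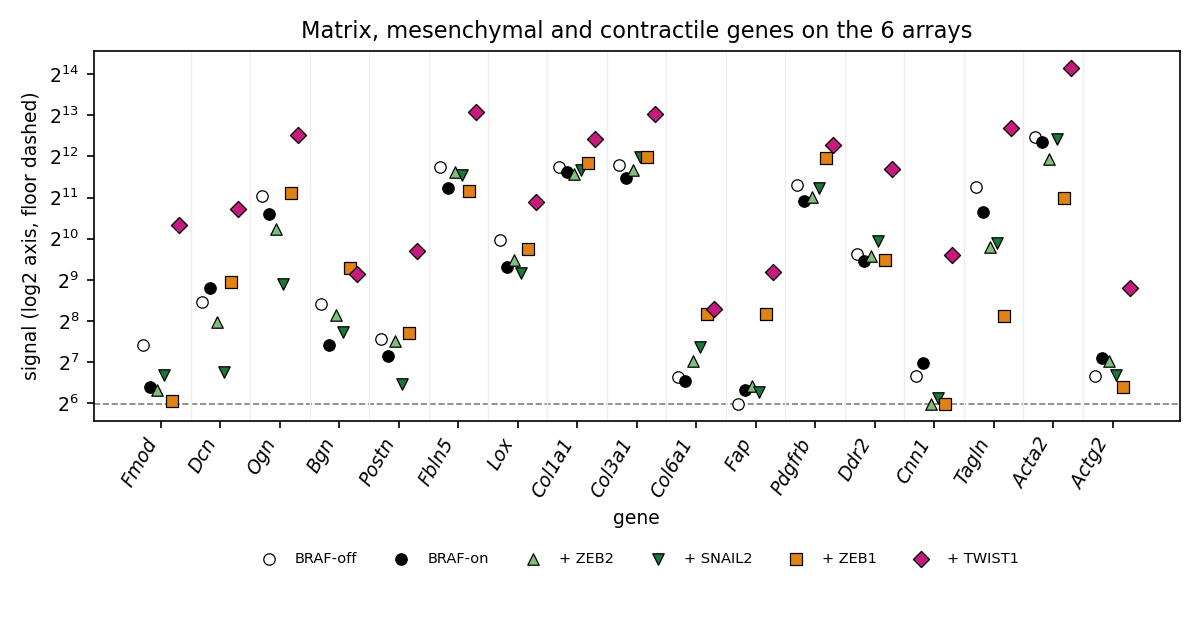
Signal of 17 matrix, mesenchymal and contractile genes on the 6 arrays (log2 axis, 1 symbol per array, dashed line at the floor, values under it drawn on it). The TWIST1 symbol is the highest for each gene but Bgn, where ZEB1 is at 630 and TWIST1 at 563.

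Counted over these 5 lists together, 24 of 94 genes (25.5%) had a signal at least 2-fold higher and 3 (3.19%) a lower one. Of all genes compared, 2.03% were higher and 2.02% lower. The median log2 ratio of the 94 genes was 0.39. Markers of other cell types were read in the same arrays. Of 8 melanocyte markers, 8 reached the floor in BRAF-on and 2 with TWIST1, Mitf and Sox10, and their summed signal was 65208 and 2352. Of 8 fibroblast markers, 5 reached the floor in BRAF-on and 7 with TWIST1, with summed signals of 5889 and 13097. Lum (lumican), which many fibroblasts express strongly, was under the floor on all 6 arrays, and Thy1 and Pdgfra reached it with TWIST1 at signals of 96.6 and 105, Pdgfra also with ZEB1 at 136. Of keratinocyte markers, Krt14, Krt15 and Trp63 were under the floor on all 6 arrays, and Krt5 was at 112 in BRAF-on and 86.2 with TWIST1. Of leukocyte markers, Ptprc, Adgre1 and Itgam were under it on all 6, while Cd68 was at 128 and 134 and Csf1r at 97.8 and 85.8. Of endothelial markers, Pecam1 and Tek were under it on all 6, Cdh5 was at 88.3 and 145, and Kdr was at 118 in BRAF-on and under the floor with TWIST1. Of fat cell markers, Adipoq and Pparg were under it on all 6, and Fabp4 was at 959 and 3616. Of Schwann cell and glial markers, Mbp was at 180 and 259 and S100b at 380 and 294. Gfap was under the floor in BRAF-on and with TWIST1. In RNA from a whole culture, fewer pigmented cells and less RNA per cell cannot be told apart. Whether other cells in the culture had a part in these results was not tested.

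Genes of skeletal and limb development, in which TWIST1 acts, included 4 of 15 compared with a signal at least 2-fold higher and 1 lower, with a median log2 ratio of 0.26. Cnmd (chondromodulin), a cartilage gene, was at 642 in BRAF-off, 289 in BRAF-on, 253 with ZEB2, 101 with SNAIL2, 286 with ZEB1 and 3145 with TWIST1, 10.9-fold above BRAF-on. Col2a1 (2.65-fold), Alpl, the bone alkaline phosphatase gene (at least 2.51-fold), and Twist2 (2.39-fold) were the others. Of the 35 genes listed here 16 were under the floor on both arrays.

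Adhesion genes showed few differences of this size. Among 15 cadherins and catenins Pcdh19 was 4.47-fold higher and the median log2 ratio was 0.06, with Cdh2 (N-cadherin) at 4191 in BRAF-on and 4856 with TWIST1. Among 10 epithelial junction genes Krt18 was 2.26-fold higher, and 17 further ones were under the floor on both arrays. None of 16 integrins and none of 11 laminin and basement membrane genes was 2-fold apart, with medians of 0.0050 and 0.06. Partners and inhibitors of helix-loop-helix factors had 1 of 11 past 2-fold. That was Id2, whose protein blocks E proteins, at 1692 in BRAF-on and 731 with TWIST1, and the E protein gene Tcf3 was 1.21-fold higher.

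Interferon response genes were higher by a small amount across nearly the whole list. Of 38 compared, 5 were at least 2-fold higher with TWIST1 and none lower. In 35 the ratio was above 0, against 5710 of the 11334 genes compared. The median log2 ratio of the list was 0.66 against BRAF-on and 0.91 against BRAF-off. The array was not alone in this, since TWIST1 and ZEB1 were the 2 highest of the 6 arrays in 33 of the 38. How often that held over all genes compared was not counted. TWIST1 itself was highest in 11 of the 38 (28.9%, against 17.4% of all genes compared). Gbp2, an interferon-induced GTPase gene, was at 2036 in BRAF-off, 2139 in BRAF-on, 1424 with ZEB2, 957 with SNAIL2, 6389 with ZEB1 and 6413 with TWIST1, a log2 ratio of 1.58 over BRAF-on. Oasl1 was 3.35-fold higher, Mx1, an antiviral GTPase gene, 2.67-fold and Irf7, a factor that amplifies the response, 2.65-fold. Zbp1, a sensor of nucleic acids, was 3.69-fold higher by the probe set used, while its second one had a log2 ratio of -0.16. Ifi27 was 1.70-fold lower.

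The core of the interferon-stimulated response element, GAAA followed by any 2 bases and a second GAAA, was searched on both strands in the same windows. It was present in 11 of 27 interferon genes in the promoter table (40.7%), against 3.13% of the compared genes, 8.82% of those at least 2-fold higher and 2.78% of those lower. Of the 5 interferon genes past 2-fold, Gbp2 held the core and Oasl1 and Irf7 did not. Mx1 and Zbp1 were not in the promoter table. Ifit1 and Ifit3, which also held it, had log2 ratios of 0.86 and 0.69. The windows of Gbp2, Ifit1 and Ifit3 are shown with the core or its reverse complement in capitals.
Gbp2, chr3:142620579-142620638, plus strand: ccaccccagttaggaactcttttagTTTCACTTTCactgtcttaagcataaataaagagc
Ifit1, chr19:34640760-34640819, plus strand: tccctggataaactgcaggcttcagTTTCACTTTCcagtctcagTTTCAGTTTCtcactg
Ifit3, chr19:34583348-34583407, plus strand: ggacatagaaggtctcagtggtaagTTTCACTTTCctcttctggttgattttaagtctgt
The core began 59 bases before the start site of Gbp2.

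Antigen presentation on MHC class I included 3 of 14 genes past 2-fold, all of them higher, and had a median log2 ratio of 0.70. These were Psmb8 (2.67-fold) and Psmb9 (2.38-fold), subunits of the immunoproteasome, and the peptide transporter gene Tap1 (2.47-fold). Here too TWIST1 and ZEB1 were the 2 highest arrays in 11 of the 14, a count not made over all genes compared. TWIST1 itself was highest in 3 (21.4%, against 17.4% of all genes compared) and lowest in 2 (14.3%, against 18.6%). B2m, the light chain gene, was at 24968 and 25950. Among chemokines, cytokines and growth factors 5 of 26 were higher and 1 lower, with a median of 0.32. Ccl7 was 3.70-fold higher, Ccl5 2.51-fold, Cxcl10 2.26-fold, Il6 2.16-fold and Ccl2 2.06-fold, while Il33 was 2.68-fold lower.

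Matrix proteases and inhibitors went both ways, with 3 of 29 at least 2-fold higher, 3 lower and a median log2 ratio of 0.02. Mmp3, a stromelysin gene, was under the floor in BRAF-off, at 248 in BRAF-on and 1192 with TWIST1, and the collagenase gene Mmp1a was 2.45-fold above BRAF-on. The aggrecanase gene Adamts5 was 2.03-fold higher, and 1.71-fold against BRAF-off. Adam12 was 7.25-fold lower, the gelatinase gene Mmp2 3.17-fold and Hpse (heparanase) at least 2.41-fold.

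**Figure D4:**
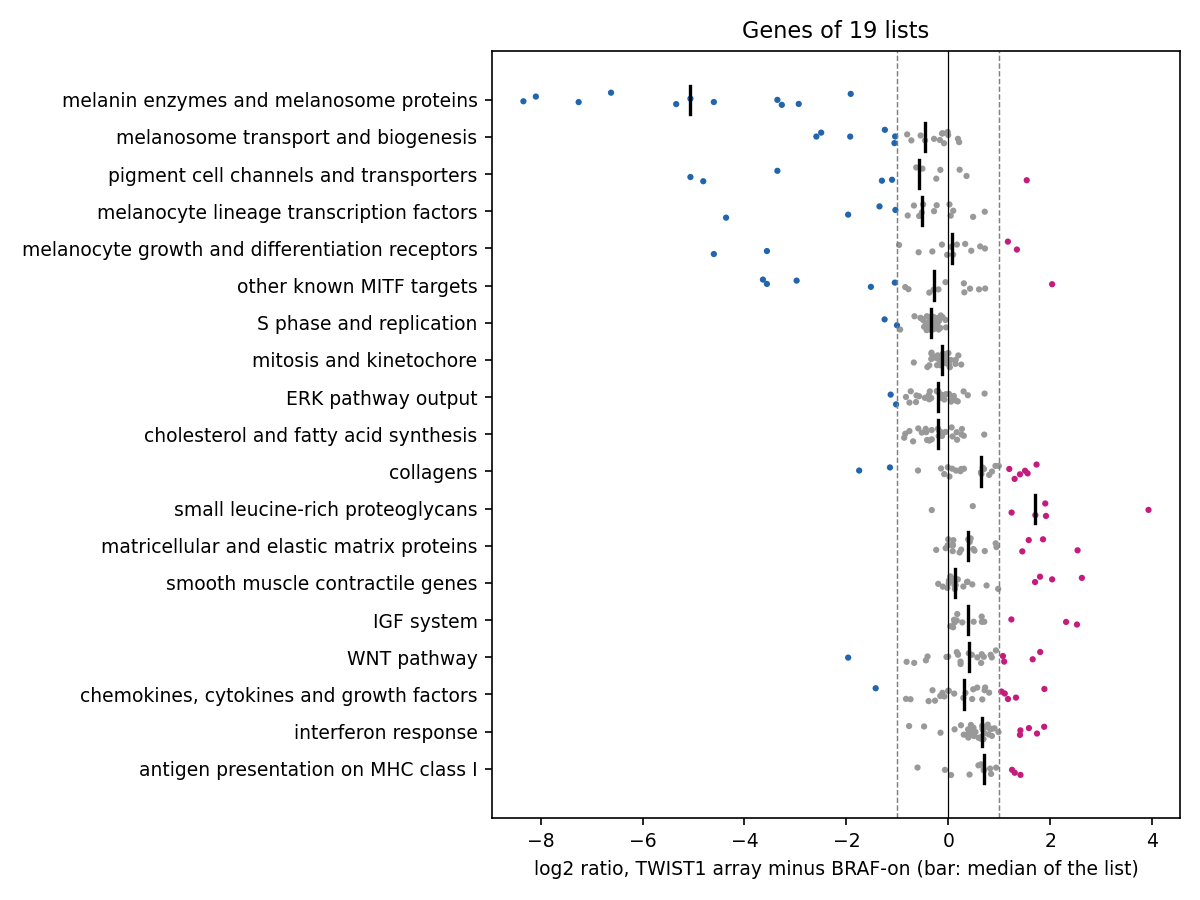
Log2 ratio of TWIST1 over BRAF-on for each compared gene of 19 lists, 1 point per gene, with the median of each list as a black bar and 2-fold as dashed lines. The melanin list lies to the left of -1 throughout, the small leucine-rich proteoglycans have the highest median (1.71), and the S phase genes lie below 0 with a median of -0.33.

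Signalling lists held a few larger differences each. In the WNT pathway 4 of 25 genes had a signal at least 2-fold higher and 1 a lower one, with a median log2 ratio of 0.40. Wnt5a, a ligand of the branch that does not use beta-catenin, was at 496 in BRAF-off, 388 in BRAF-on, 257 with ZEB2, 185 with SNAIL2, 582 with ZEB1 and 1358 with TWIST1, 3.50-fold above BRAF-on, and its receptor gene Ror1 was 3.16-fold higher. Fzd5 and Dkk3 were 2.14-fold and 2.10-fold higher, with log2 ratios of 0.86 and 0.76 against BRAF-off, and Lef1 was the lower one. In the insulin-like growth factor system 3 of 14 were higher, with a median of 0.39. The ratio was above 0 in 14 of 14, against 5710 of the 11334 genes compared. Igfbp2 was at least 5.77-fold higher, Igfbp5 at least 4.97-fold and the adaptor gene Grb10 2.36-fold. Of 27 genes of TGF-beta, BMP and SMAD signalling 3 were higher, Tgfb3 (2.85-fold), Ltbp2 (2.26-fold) and Bmp4 (2.08-fold), and Id2 was lower, with a median of 0.11.

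Of 21 genes known from undifferentiated melanoma, 6 were at least 2-fold higher and none lower, with a median log2 ratio of 0.21. Besides Wnt5a, Lox, Pdgfrb and Il6 these were Slit2 (3.32-fold), a guidance ligand gene, and Aldh1a1 (2.87-fold). Axl, a receptor often used to mark that state, was at 7094 in BRAF-on and 6514 with TWIST1. Schwann cell and glial genes had 3 of 15 higher and 1 lower, with a median log2 ratio of 0.10. Against BRAF-off the median was -0.26, and 10 of the 15 lay below 0, as did 5431 of all 11132 genes in that comparison. The higher ones included Postn and Pmp22, a myelin protein gene, at 232 and 1310 (5.64-fold).

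Genes of DNA replication were slightly lower as a list. Of 36 S phase genes, 36 had a ratio below 0, against 5624 of the 11334 genes compared. The median log2 ratio of the list was -0.33 (-0.44 against BRAF-off), and 2 were at least 2-fold lower. Those were the transcription factor genes E2f2, at 314 in BRAF-on and 132 with TWIST1, and E2f1, at 658 and 328. In 28 of the 36, TWIST1 and ZEB1 were the 2 lowest of the 6 arrays, a count not made over all genes compared. TWIST1 itself was lowest in 1 of the 36 (2.78%, against 18.6% of all genes compared). None of 34 mitosis genes was 2-fold apart, with a median of -0.11. Among 10 CDK inhibitors and RB family genes Cdkn1c (p57) was 2.86-fold higher (1.77-fold against BRAF-off), and Cdkn2a and Cdkn1a were 1.59-fold and 1.54-fold lower. Myc was 2.19-fold lower than in BRAF-on.

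The study's design asked what the added factors do to the targets of BRAF. Activation of BRAF alone gave 116 genes with a signal at least 2-fold above BRAF-off (1.04%) and 43 at least 2-fold under it (0.384%). Of the 116, 9 were at least 2-fold higher again with TWIST1 (7.76%) and 12 lower (10.3%), with a median log2 ratio of -0.11, and 77 were still at least 2-fold above BRAF-off. Of the 43, 12 were higher with TWIST1 (27.9%), 10 lower (23.3%) and 26 still at least 2-fold under BRAF-off. Of all genes compared, 2.03% were at least 2-fold higher with TWIST1 than in BRAF-on and 2.02% lower. BRAF-on enters both comparisons, so a high or low value on that array alone would move them in opposite directions.

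The 9 genes higher with BRAF and higher again with TWIST1 included secreted and inflammatory ones. Fabp4, a fatty acid binding protein gene, was under the floor in BRAF-off, at 959 in BRAF-on, 401 with ZEB2, 108 with SNAIL2, 6449 with ZEB1 and 3616 with TWIST1. Mmp1a, under the floor in BRAF-off, was at 946 in BRAF-on and 2313 with TWIST1. Ccl2 was at 1097 in BRAF-off, 2644 and 5450, and Ccl5 at 1008, 2167 and 5448. Mmp3, the cornified envelope gene Sprr1a, Ifi213, Chrna1 and Lce1i were the others. Fabp4, Mmp1a, Ccl5, Mmp3, Chrna1 and Lce1i were higher still with ZEB1, where Mmp1a was at 2628, Ccl5 at 6840 and Mmp3 at 1756. Ccl2, Sprr1a and Ifi213 were highest with TWIST1, and with ZEB1 they were at 4455, 568 and 865. That each of the 9 was at least 2-fold above BRAF-off as well follows from how they were chosen.

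Genes higher with BRAF that were lower with TWIST1 were mostly dim. Gzme, a granzyme gene, was at 230 in BRAF-off, 756 in BRAF-on, 288 with ZEB2, 178 with SNAIL2, 825 with ZEB1 and 215 with TWIST1, near its level without BRAF. Cd24a, a surface glycoprotein gene, was under the floor in BRAF-off, at 252 in BRAF-on and 96.5 with TWIST1. Atg9b and Clip4 were 2.99-fold and 2.73-fold under BRAF-on and within 1.05-fold and 1.25-fold of the floor that stood for BRAF-off. The stromelysin gene Mmp10, at 2606 in BRAF-on and 2348 with TWIST1, Serpinb2, an inhibitor of plasminogen activation, at 1310 and 2104, and the phosphatase gene Dusp5, at 644 and 566, stayed within 2-fold. Over 31 genes of ERK pathway output the median log2 ratio was -0.20 against BRAF-on and 0.09 against BRAF-off, with Myc and Dusp4 (2.03-fold) the 2 at least 2-fold lower.

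Among genes lower with BRAF, both directions included members described above. Fmod, Cnmd, the transmembrane gene Lrtm2 and Plxdc2 were at least 2-fold under BRAF-off in BRAF-on and at least 2-fold over it with TWIST1. Lrtm2 was at 242 in BRAF-off, 99.6 in BRAF-on and 702 with TWIST1, and Plxdc2 at 311, 119 and 638. Eya4, Abca9, Mme, Ccdc80 and Pgf were also at least 2-fold above BRAF-on, and with TWIST1 they lay within 2-fold of BRAF-off. Tyr, Oca2, Mgll, Tfec, Kcnj13, Cfap54, Npnt, Chsy3 and the proteoglycan gene Bcan were lower with BRAF and lower again with TWIST1.

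**Figure D5:**
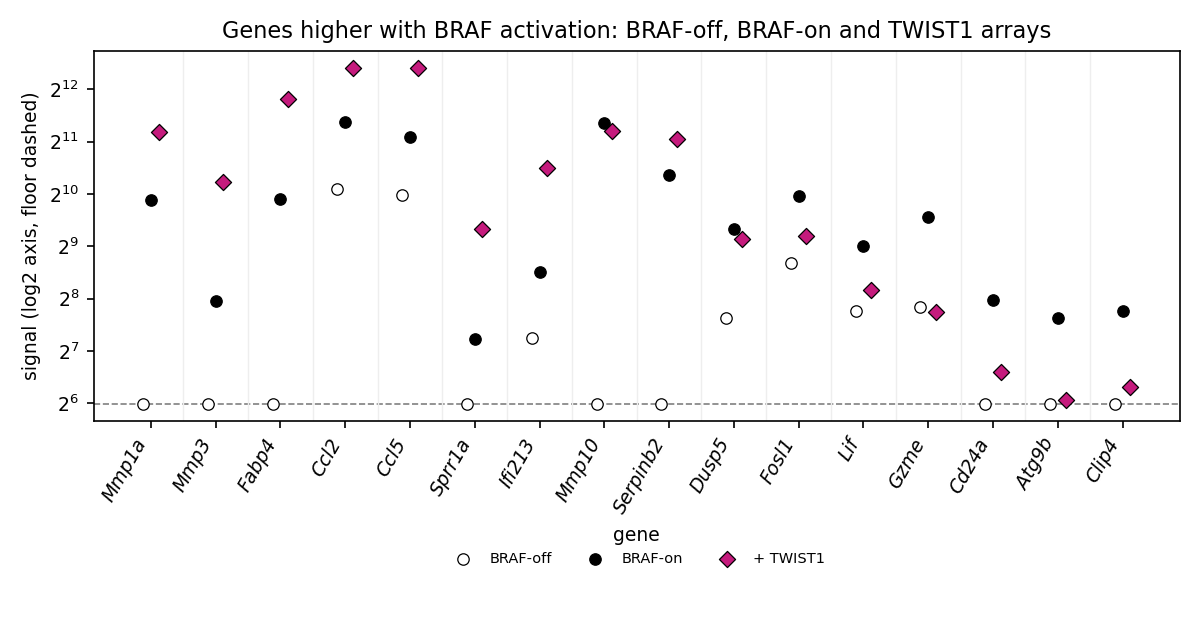
Signal of 16 genes at least 2-fold higher with BRAF activation in BRAF-off (white), BRAF-on (black) and with TWIST1 (magenta), on a log2 axis with the floor dashed and values under it drawn on it. The genes were picked to show higher, similar and lower values with TWIST1, from Fabp4 at 3616 against 959 in BRAF-on to Gzme at 215 against 756.

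Genes that stood apart on the TWIST1 array from every other one were counted last. Of 12040 genes that reached the floor on at least 1 array, 57 were at least 2-fold above all 5 others (0.473%) and 79 at least 2-fold below all 5 (0.656%). On the other arrays the same counts were 1 and 15 for BRAF-off, 1 and 2 for BRAF-on, 5 and 0 for ZEB2, 24 and 171 for SNAIL2, and 152 and 100 for ZEB1. Among the 57 were Fmod, Cnmd, Lrtm2, Pmp22, Postn, Ddr2, Tagln, Acta2, Cnn1, Igfbp2, Igfbp5 and Wnt5a.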

How the data were processed

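Labelled RNA was made from total RNA by 3' in vitro transcription and read on 1-colour Affymetrix mouse arrays, 1 per group, per the labels' protocols. The authors deposited signal intensity values on a linear scale, for which the submitters' processing notes name MAS5 and Affymetrix Expression Console 1.1. After trimming 2% of values at each end, the mean of every array was 500, a common level.

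The arrays held 45101 probe sets, 64 of them controls. The platform annotation gave 34945 of the remaining 45037 a single gene symbol, and these were used, while 932 had several symbols and 9160 were unnamed. A RefSeq gene table of GRCm38.p6 held 34741 of them by Entrez number. Of the 18193 genes, 9010 had several probe sets.

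Deposited signals were taken to log2 with a floor of 63.7 and no further normalization, and genes were counted at 2-fold by size alone. Detection calls were not used here. The counting was tested on simulated data, with changes put into genes far above the floor. That test did not cover changes near 2-fold or genes close to the floor. There were 48 gene lists with 1162 entries, 1079 of them with a probe set. The genes compared and the lists were chosen with earlier results of these data known. Genes named were the 15 largest ratios per direction measured on both arrays, the 10 largest bounds, members of the lists, the introduced factors and Braf, and up to 12 genes per direction among those 2-fold apart between BRAF-on and BRAF-off. Unless they were list members, genes known by a clone or model name, or whose probe sets opposed each other in sign, were left out. Python 3.11.15 was used with numpy 2.4.6, pandas 2.3.3 and matplotlib 3.10.9.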

Additional observations from a re-analysis of the deposited data

How the results depend on the processing

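No array could be left out and no paired analysis was possible because each group has 1 array and the labels number no replicates. The counts of genes higher and lower were 230 and 229. They were 351 and 421 without a floor, 73 and 48 with the floor at the 75th percentile (476.3 signal units) and 72 and 81 at 3-fold. With the floor at the 60th percentile (132.8) the lower count was 148 and with BRAF-off as the reference the higher count was 346. With quantile normalization or centring, with the floor used as a pseudocount, with each gene's median probe set signal, and without shared probe sets, both counts stayed within 1.5 times. The melanin list kept its direction, with medians of -4.00 and -2.16 at the 60th and 75th percentile, -6.49 without a floor, -3.58 with the median of probe sets and -5.94 against BRAF-off. Some list medians of at least 0.1 in size changed sign: endothelial markers to 0.13 (60th percentile) and 0.53 (BRAF-off), bHLH partners and ID inhibitors to 0.040 and fibroblast and mesenchymal markers to -0.059 (75th percentile), epithelial junction genes to -0.0096 and guidance genes to -0.016 (median of probe sets), and ERK output to 0.087 (BRAF-off). Col12a1 went to -0.38 with the median of probe sets. Against BRAF-off the log2 ratios of Atg9b (0.065), Cd24a (0.60), Cd300lb (0.23), Clip4 (0.32), Disp2 (0.55), Gchfr (0.44), Gfra1 (0.14) and Nrxn3 (-0.30) had the other sign. Each of these 8 genes was at least 2-fold apart between BRAF-on and BRAF-off, opposite to its TWIST1 ratio and by more. The sign against BRAF-off follows from those values. The cause of the other sign changes was not tested. Named genes past 2-fold fell under the size that counts, with the same sign, in 37 of 159 at the 60th percentile floor (Col6a2 0.52, Cdkn1c 0.65, Col14a1 -0.73, Lef1 -0.91), 39 of 98 at the 75th (Postn 0.80, Fap 0.29, Kit -0.66), 31 of 160 with the pseudocount, 23 of 139 with the median of probe sets (Acta2 0.51), 22 of 158 against BRAF-off, 8 of 160 under quantile normalization (Sox5, E2f1 and Rab27a among them), 1 of 154 without shared probe sets (Acta2 0.51) and 75 of 160 at 3-fold. With the median of probe sets, those under 2-fold also included Art3 (-0.0014), Plxdc2 (0.28), Lef1 (-0.35), Col14a1 (-0.40), Fabp4 (0.52) and Lox (0.67). Dim genes have the less certain folds, since a signal close to the floor is close to background.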

Other observations

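Lists of general cell functions held few genes 2-fold apart with TWIST1. None of 24 cytoplasmic ribosomal protein genes, 31 lysosome and autophagy genes, 19 glycolysis and hypoxia genes, 26 cholesterol and fatty acid synthesis genes, 17 p53 targets or 12 BCL2 family genes was, with median log2 ratios of -0.07, -0.04, -0.17, -0.19, -0.04 and -0.0065. Idi1, an enzyme gene of isoprenoid synthesis, was at 1268 in BRAF-on and 706 with TWIST1. Vldlr, a lipoprotein receptor gene, was 2.23-fold higher as the 1 of 23 genes of the unfolded protein and ATF4 response past 2-fold.

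Further genes outside the lists were among the largest differences. H2-Q5, a class Ib histocompatibility gene, was at 93.5 in BRAF-on, 368 with ZEB1 and 770 with TWIST1, 8.23-fold above BRAF-on, and under the floor in BRAF-off. Upk3b, a gene of mesothelium and urothelium, was 6.80-fold higher and the crystallin gene Crygs 5.56-fold. The lectin gene Clec2d was at 100 in BRAF-on, 452 with TWIST1 and 476 with ZEB1. Krt7, a keratin gene of simple epithelia, was at least 3.33-fold higher and Fgf18, a growth factor gene of bone and cartilage, at least 3.27-fold. In the guidance list, the receptor gene Plxnd1 was at 1494 in BRAF-on and 593 with TWIST1, 2.52-fold lower.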
